A study of Rattus norvegicus with 32 samples.

Results

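Transcripts of 35 genes that mark astrocytes, or that astrocytes express strongly, were followed through 32 RNA-seq libraries of rat brainstem and hypothalamus. The genes were chosen as a named list, and all 35 were found among the 22587 genes of the expression table. All rats were Wistar Kyoto, an inbred strain, at 13 weeks of age. In some, both adrenal glands, the main source of corticosterone, had been taken out (total bilateral adrenalectomy, ADREX), and the others were sham-operated. Each exposure lasted 4 hours, to filtered air or to 0.8 ppm ozone, and tissue was taken right after it. With 2 tissues, each combination of operation and exposure formed a group of 4 libraries, and libraries are named here by group and label number (brainstem ADREX ozone 81). The labels give no hormone replacement and do not say whether a library came from 1 animal, so a p-value here reflects how far these libraries scatter, which may be technical.

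Astrocytes clear glutamate and GABA from synapses, turn glutamate into glutamine, buffer water and ions at end-feet on blood vessels, store glycogen, and share small molecules through gap junctions built of connexins. Glucocorticoids act on them through the glucocorticoid receptor, a transcription factor that astrocytes carry, and glutamine synthetase is a long-known glucocorticoid-inducible enzyme of glia. Reactive astrocytes, as after injury, typically raise the filament protein GFAP.

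Levels are normalized counts as deposited, with mean ± SD over 4 libraries. Changes are log2 differences ± SE on the log2(normalized count + 1) scale, a call is a Benjamini-Hochberg adjusted p under 0.05 over all genes tested in limma, and "rose" and "fell" are used of calls alone. All 35 genes were detected in every library and passed the filter on low values, a mean of 10 normalized counts. The gene nearest to that filter was Chrdl1, a secreted antagonist of bone morphogenetic proteins, with 13.5 to 20.7 normalized counts in brainstem sham air. Single libraries lay below 10, at 6.87 in hypothalamus ADREX air 65 and 7.50 in hypothalamus ADREX ozone 83. The tissues are bulk samples, in which fewer astrocytes and less RNA per astrocyte cannot be told apart.

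Libraries held 6.44 to 12.4 M reads. Of 18 glucocorticoid-responsive genes, chosen with earlier results of these data known, 15 were lower in ADREX than in sham brainstem after ozone (1.25% of all genes). In hypothalamus after ozone 13 were lower in ADREX (1.20% of all genes), and none was higher in either tissue. In air limma called 0 of all genes in brainstem. There the summed list had a median of 5039 normalized counts in ADREX and 6663 in sham air, and in hypothalamus 4378 and 5337. The tissue labels were checked with tanycyte markers. Of 7 tested, 6 were higher in hypothalamus than in brainstem in sham air, where 2319 of all 14533 genes were. Vcan, also on that list, went the other way, averaging 599 normalized counts in brainstem and 331 in hypothalamus over all libraries. So did Adm, at 10.5 and 6.24, while Rax was at 0 in 24 of the 32 libraries. Of the cerebellar markers, the granule cell gene Gabra6 averaged 259 normalized counts in brainstem and 1.87 in hypothalamus. Cbln1 (951 and 1502), Zic1 (295 and 768) and Calb1 (333 and 725) went the other way. Library brainstem ADREX ozone 81 stood apart: 19 of the 35 astrocyte genes lay more than 0.5 log2 units from the mean of the other 3 libraries of its group, 7 above and 12 below. In hypothalamus ADREX ozone 84 this held for 7 genes and in hypothalamus sham ozone 18 for 6. All genes past the filter deviated too. In brainstem ADREX ozone 81 the median absolute deviation was 0.538 over the 35 genes and 0.448 over all genes. The values were 0.338 and 0.302 in hypothalamus ADREX ozone 84, and 0.235 and 0.278 in hypothalamus sham ozone 18. Liver transcripts were abundant in 4 libraries, namely 18 of sham ozone in both tissues, and in hypothalamus also 2 of sham air and 68 of ADREX air, with sums over 15 such genes of up to 44930.3 normalized counts. That sum includes Tf, which averaged 15175 in brainstem and 6670 in hypothalamus over all libraries, and Ttr, also a choroid plexus marker. It therefore does not measure liver transcripts alone. Alb ranged from 43.7 to 18028 over all libraries. Calls within a tissue that rest on the 3 libraries that stood apart, and some uncalled values, are also given without them. Between tissues only the number of calls in ADREX ozone is.

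The first comparison asked what loss of the adrenals did to astrocyte transcripts in rats that breathed ozone. In the hypothalamus 6 of the 35 genes were called, 1 higher and 5 lower, where 2.24% of all 14483 genes were (1.04% higher and 1.20% lower). In the brainstem 3 of the 35 were called, 1 higher and 2 lower, where 2.44% of all 14408 genes were (1.19% higher and 1.25% lower). Etnppl and Gjb6 fell in both tissues. Glul, Aldoc and Ndrg2 fell in the hypothalamus, Gfap rose in the brainstem, and Aqp4 rose in the hypothalamus. The other 32 genes in the brainstem and 29 in the hypothalamus did not pass. Groups without overlap were found for 5 listed genes in brainstem, 2 higher and 3 lower (3.78% and 3.51% of all genes). In hypothalamus they were found for 10, 3 higher and 7 lower (3.26% and 3.38%). The uncalled ones among them were Glul and Entpd2 in brainstem, and Slc4a4, Acsbg1, Ppp1r3c and Gpr37l1 in hypothalamus. The median change over the 35 genes was -0.13 in the brainstem and -0.12 in the hypothalamus, beside -0.0045 and 0.0054 over all genes.

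**Figure D1:**
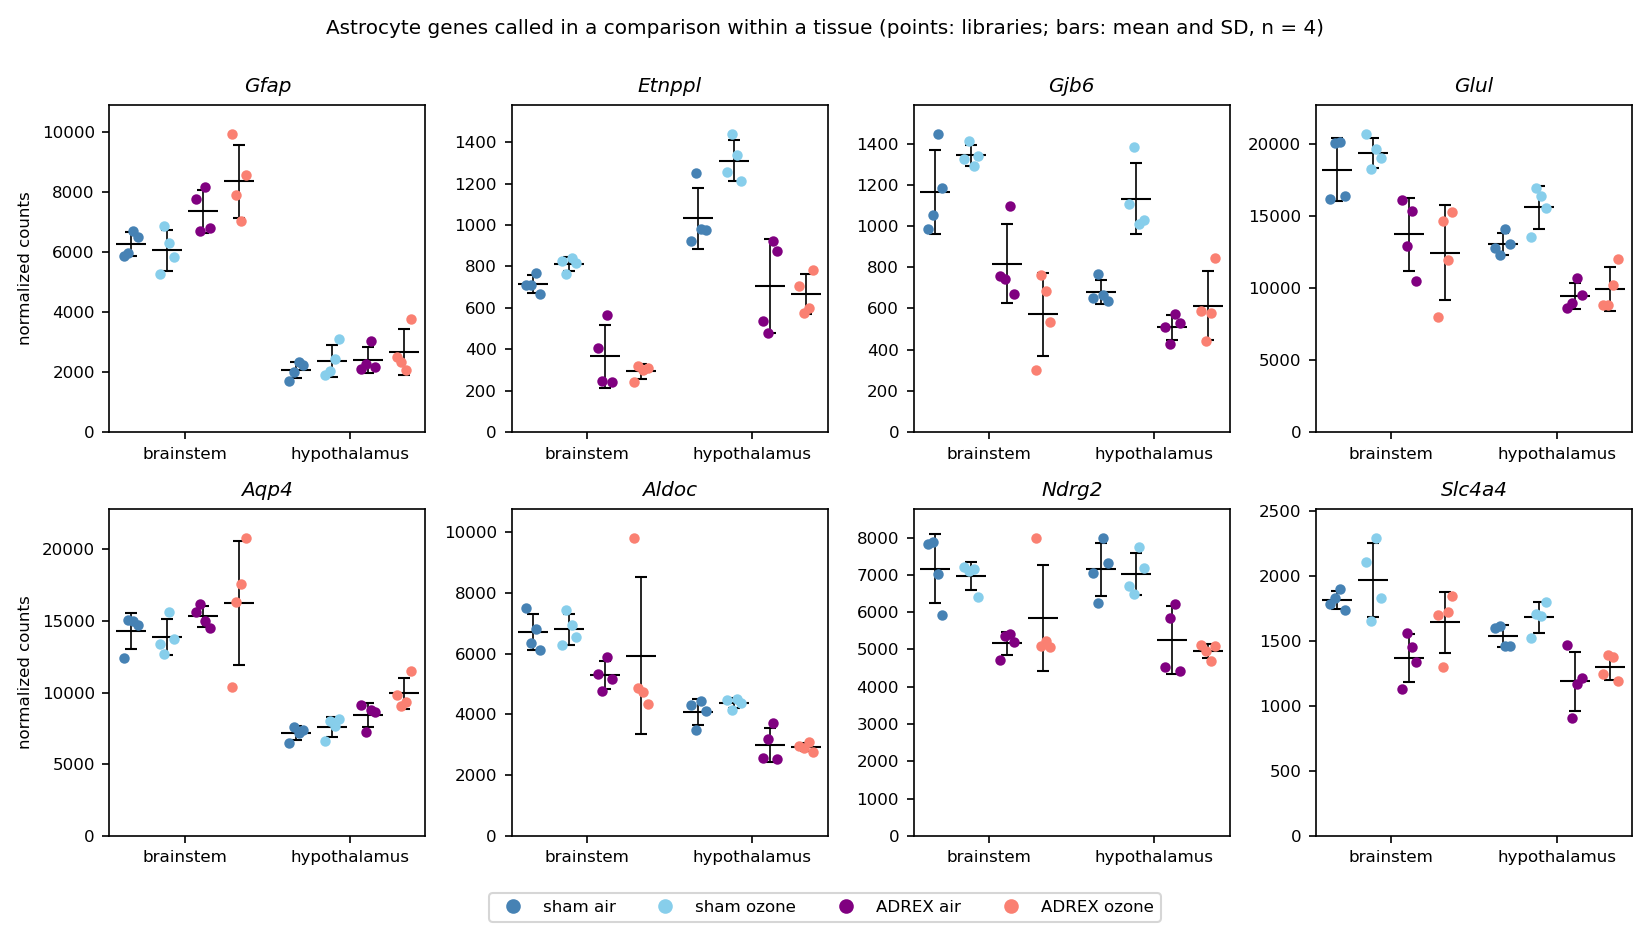
Normalized counts (y axis, from 0) of the 8 astrocyte genes called in a comparison within a tissue, with 1 point per library, coloured by operation and exposure, and bars for mean and SD of 4 libraries. Etnppl, Gjb6 and Glul lie lower in ADREX than in sham libraries of both tissues after ozone, and Gfap and Aqp4 lie higher in brainstem than in hypothalamus.

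Etnppl encodes ethanolamine-phosphate phospho-lyase, an enzyme that breaks down phosphoethanolamine and is largely limited to astrocytes in brain. In brainstem after ozone, its normalized counts were 826, 764, 839 and 817 in sham libraries 17 to 20 and 243, 319, 297 and 311 in ADREX libraries 81 to 84. In hypothalamus they were 1257, 1438, 1341 and 1211 in sham and 704, 577, 600.0 and 784 in ADREX libraries of the same numbers. Sham and ADREX libraries did not overlap in either tissue. The fall was -1.48 ± 0.20 in brainstem (limma adjusted p = 0.000399) and -0.98 ± 0.18 in hypothalamus (limma adjusted p = 0.00589), the largest fall of any listed gene in both tissues.

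Gjb6 encodes a connexin that astrocytes make beside that of Gja1. In brainstem after ozone, it stood at 1326, 1415, 1293 and 1339.9 normalized counts in sham libraries 17 to 20 and at 303, 762, 685 and 533 in ADREX libraries 81 to 84. In hypothalamus the values were 1108, 1386, 1009 and 1031 in sham and 589, 440.3, 580.0 and 843 in ADREX libraries. The groups did not overlap in either tissue, and brainstem ADREX ozone 81 held the lowest value. Gjb6 fell in brainstem, by a log2 difference of -1.32 ± 0.22 (limma adjusted p = 0.00295), and in hypothalamus, by one of -0.91 ± 0.16 (limma adjusted p = 0.00351). Without library 81 the brainstem change was -1.04 ± 0.16, still a call. In hypothalamus the call was lost in a fit of the compared groups alone (limma adjusted p = 0.0533).

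Gja1, the more widely expressed connexin, was not called in either tissue. Its normalized counts after ozone were 5007, 5191, 5173 and 4724 in sham and 2275, 5066, 4831 and 4473 in ADREX brainstem, where library 81 was the lowest of all and the other 3 ADREX libraries lay within or just below the sham range. In hypothalamus they were 5142, 6159.7, 5257 and 5222 in sham and 5138, 4734, 5083 and 6127 in ADREX libraries. The difference was -0.34 ± 0.20 in brainstem, with a 95% interval from -0.75 to 0.08, but -0.07 ± 0.12 without library 81, and -0.05 ± 0.08 in hypothalamus, with an interval from -0.23 to 0.13.

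Promoter windows of the listed genes were searched for the half-site of the glucocorticoid receptor, AGAACA or its reverse complement TGTTCT. RefSeq (assembly GRCr8) gave windows of 300 bases, 250 before and 50 after a start site, for 31 of the 35 genes, 43 windows in all. Of these 43 windows 7 held the half-site, and so did 20.7% of all 33469 windows in the table. The full palindrome of the response element was in 0 of the 43 and in 0.0149% of all windows. The 2 windows printed here belong to the genes that fell in both tissues, Etnppl and Gjb6, and are those that hold the half-site (in capitals), on the gene's own strand, 5′ to 3′. The Etnppl window, the third of 3 for that gene, lies at chr2:221851486-221851785 on the plus strand, and the Gjb6 window, 1 of 2, at chr15:35408913-35409212 on the minus strand. The STAT element was in 3 of the 43 windows (8.87% of all windows), the SOX element in 1 (11.7%) and the NFI element in 0 (0.0418%), all searched on both strands. A match of 6 letters describes the sequence and says nothing of binding.
Etnppl: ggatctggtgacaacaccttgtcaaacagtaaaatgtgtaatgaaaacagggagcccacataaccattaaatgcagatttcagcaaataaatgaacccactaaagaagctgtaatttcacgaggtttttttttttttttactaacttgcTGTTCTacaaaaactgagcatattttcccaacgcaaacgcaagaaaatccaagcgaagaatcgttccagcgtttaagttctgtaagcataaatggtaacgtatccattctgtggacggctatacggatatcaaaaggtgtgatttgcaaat
Gjb6: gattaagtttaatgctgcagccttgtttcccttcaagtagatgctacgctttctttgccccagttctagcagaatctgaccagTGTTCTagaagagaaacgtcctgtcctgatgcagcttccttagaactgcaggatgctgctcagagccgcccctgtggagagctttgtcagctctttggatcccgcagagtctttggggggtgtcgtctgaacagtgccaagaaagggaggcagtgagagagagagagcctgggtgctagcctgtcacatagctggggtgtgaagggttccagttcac
Counted from the start site, the half-site begins at position -101 in the Etnppl window and at -167 in the Gjb6 window.

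Glul encodes glutamine synthetase, which makes glutamine from glutamate and ammonia. Its normalized counts in hypothalamus after ozone were 13543, 16927, 16408 and 15547 in sham and 8817, 8826, 10199 and 12049 in ADREX libraries, with no overlap. It fell there, with a log2 difference of -0.65 ± 0.10 (limma adjusted p = 0.00167). In brainstem the values were 20691, 18263, 19688 and 19021 in sham and 8008, 14656, 11946 and 15265 in ADREX libraries, also without overlap and with library 81 the lowest. The brainstem difference was -0.68 ± 0.18 and missed the threshold (limma adjusted p = 0.052).

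None of the transporters of transmitters and amino acids was called beside Glul. The glutamate transporters Slc1a2 and Slc1a3 differed by -0.21 ± 0.17 and 0.13 ± 0.16 in brainstem and by -0.05 ± 0.21 and -0.25 ± 0.13 in hypothalamus, none of them a call. Slc6a11, a GABA transporter, differed by 0.01 ± 0.10 and -0.01 ± 0.07, and Slc7a10, a transporter of small neutral amino acids, by 0.01 ± 0.15 and 0.09 ± 0.10.

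Aldoc encodes the brain aldolase, a glycolytic enzyme, and Ndrg2 a protein of the NDRG family that astrocytes express strongly. In hypothalamus after ozone, Aldoc stood at 4477, 4134, 4505 and 4375 normalized counts in sham and 2959, 2898, 3089 and 2761 in ADREX libraries, and it fell, by a log2 difference of -0.58 ± 0.11 (limma adjusted p = 0.00643). Ndrg2 stood at 6703, 6485, 7754 and 7177 in sham and 5112, 4961, 4699 and 5089.8 in ADREX libraries, and it fell, by a log2 difference of -0.50 ± 0.11 (limma adjusted p = 0.0172). Neither gene's groups overlapped. Without hypothalamus ADREX ozone 84, 5 listed genes were called, Aqp4 being lost (limma adjusted p = 0.114), and without hypothalamus sham ozone 18 there were 7, Fgfr3 being added (-0.61 ± 0.12, limma adjusted p = 0.00608). The Ndrg2 call was lost under quantile normalization and without sham ozone 19, sham ozone 20 or ADREX ozone 83, with adjusted p of up to 0.0763.

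In brainstem, the calls of both genes turned on library 81. Aldoc stood there at 6284, 7436, 6946 and 6528 in sham and 9792, 4859, 4739 and 4325 in ADREX libraries, with library 81 above every sham library and the other 3 below every sham library. Ndrg2 stood at 7209, 7100.5, 7162 and 6407 in sham and 7980.3, 5079.8, 5218 and 5076 in ADREX libraries, with library 81 again the highest of all 8. With library 81 the differences were -0.28 ± 0.19 and -0.28 ± 0.13, neither a call. Without it Aldoc differed by -0.55 ± 0.09 (limma adjusted p = 0.00183) and Ndrg2 by -0.44 ± 0.09 (limma adjusted p = 0.0114), both calls. In that fit 6 listed genes were called: Aldoc, Etnppl, Gjb6, Ndrg2 and Mfge8, all lower, and Aqp4, higher (0.39 ± 0.10, limma adjusted p = 0.0365). Gfap was no longer called (limma adjusted p = 0.0607). Library 81 also held 286722 normalized counts over 12 oligodendrocyte markers, the lowest of the 16 brainstem libraries, and 4885 over 10 endothelial markers, also the lowest. The part of these in its astrocyte values was not tested.

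Gfap, the filament protein of astrocytes, went the other way. In brainstem after ozone, its normalized counts were 5255, 6870.5, 6275 and 5813 in sham and 9907, 7886, 7011 and 8569.8 in ADREX libraries, all ADREX libraries above all sham libraries. It rose by 0.46 ± 0.11 (limma adjusted p = 0.0409), and the call was lost in 13 of 27 alternative fits, with adjusted p between 0.0048 and 0.193. In hypothalamus the values were 1883, 2031, 2432 and 3080.3 in sham and 2494, 2334, 2048 and 3763 in ADREX libraries, which overlapped, and the difference was 0.16 ± 0.18, or -0.02 ± 0.16 without library 84.

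Aqp4, the water channel of end-feet, rose in the hypothalamus. Its normalized counts after ozone were 6604, 8036, 7705 and 8164 in sham and 9817, 9065, 9380.4 and 11518 in ADREX libraries, without overlap. The rise was 0.38 ± 0.09 (limma adjusted p = 0.0449), and the call was lost in 15 of 27 alternative fits, with adjusted p between 0.00693 and 0.165. In brainstem, with library 81 at 10426 below every sham library and the other 3 ADREX libraries at 16336, 17583 and 20777 above every sham library, the difference was 0.19 ± 0.16.

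Among the remaining end-foot and ion genes none was called after ozone. The bicarbonate cotransporter Slc4a4 differed by -0.26 ± 0.13 in brainstem and -0.37 ± 0.11 in hypothalamus, where its groups did not overlap. Mlc1 and Hepacam, partner membrane proteins of astrocyte junctions, differed by -0.03 ± 0.09 and -0.28 ± 0.14 in brainstem and by -0.08 ± 0.08 and -0.15 ± 0.11 in hypothalamus. The calcium-binding protein S100b differed by 0.01 ± 0.08 (95% interval -0.16 to 0.18) and -0.08 ± 0.07 (-0.24 to 0.08), and the folate enzyme Aldh1l1 by -0.03 ± 0.17 and -0.23 ± 0.14. Atp1b2, a subunit of the sodium pump, and the zinc transporter Slc39a12 differed by -0.47 ± 0.25 and -0.42 ± 0.21 in brainstem and by -0.03 ± 0.21 and -0.27 ± 0.11 in hypothalamus. Without brainstem library 81 their brainstem differences were -0.20 ± 0.21 and -0.16 ± 0.14, and without hypothalamus ADREX ozone 84 that of Atp1b2 in hypothalamus was -0.28 ± 0.17. The transcription regulators Sox9, Id3 and Id4 lay between -0.02 and 0.30 in brainstem and between -0.14 and 0.40 in hypothalamus. Without library 81 Sox9 and Id4 stood at 0.54 ± 0.19 and 0.28 ± 0.11 in brainstem, and Sox9 in hypothalamus stood at 0.16 ± 0.23 without ADREX ozone 84 and at 0.66 ± 0.22 without sham ozone 18. Ppp1r3c and Entpd2 were positive and Acsbg1, a fatty acid enzyme, negative in both tissues, at 0.19, 0.33 and -0.13 in brainstem and 0.19, 0.23 and -0.29 in hypothalamus. The secreted proteins Clu, Apoe, Cst3, Mfge8, Chrdl1 and F3 gave differences between -0.31 and 0.03 in brainstem and between -0.52 and -0.07 in hypothalamus. Of these, Cst3 went from -0.29 to -0.09 ± 0.08 and Mfge8 from -0.31 to -0.45 ± 0.08, a call, in brainstem without library 81. The growth factor receptor Fgfr3 was the receptor gene nearest to a call, at -0.49 ± 0.13 in hypothalamus (limma adjusted p = 0.0584), and Ntsr2, Gpr37l1 and Bmpr1b stood at -0.12, 0.39 and 0.28 there.

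Markers of other cell types moved in the same comparison, in which 1.19% of all genes were higher in brainstem and 1.04% in hypothalamus. Endothelial markers were higher in ADREX for 5 of 10 tested in each tissue, among them the receptor Kdr (1.07 ± 0.18 in brainstem and 0.90 ± 0.16 in hypothalamus). Oligodendrocyte markers were higher for 2 of 12 in brainstem and 6 of 12 in hypothalamus, led by Opalin (0.78 ± 0.15 and 0.96 ± 0.09). Neuron markers were called for 0 of 12 in both. The summed oligodendrocyte markers ranged from 139502 to 159550.0 normalized counts in sham and from 155139 to 210789 in ADREX hypothalamus after ozone, and the summed endothelial markers from 6197 to 8067 and from 5088 to 9269. In brainstem the endothelial sum was not higher in ADREX, with a median of 7459 (4885 to 8195) beside 8256 (7431 to 9206) in sham. Slc2a1 weighed most in that sum. Over all libraries it averaged 4015 in brainstem and 3433 in hypothalamus, beside 300 and 234 for Kdr. The part of these cell types in the astrocyte results was not tested.

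The same operation was then compared in rats that breathed air. Limma called 0 of the 35 genes in either tissue, where 0% of genes were called in brainstem and 0.0138% in hypothalamus (0.00690% higher and 0.00690% lower). At an unadjusted p under 0.05 there were 6 listed genes in brainstem and 9 in hypothalamus. On the recovered reads edgeR called 0 listed genes in each tissue, and DESeq2 called Etnppl in brainstem and Glul in hypothalamus. The 5 genes with the smallest p did not pass in limma: in brainstem Etnppl (-1.06), Slc1a2 (-0.61), Ndrg2 (-0.47), Slc4a4 (-0.42) and Glul (-0.42), and in hypothalamus Glul (-0.47), Ndrg2 (-0.45), Aldoc (-0.46), Slc4a4 (-0.39) and Etnppl (-0.60).

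Etnppl stood at 712, 710.3, 769.6 and 664 normalized counts in sham brainstem and at 406, 247, 565 and 242 in ADREX brainstem. In hypothalamus it stood at 922, 1251, 979 and 974 in sham and 537, 479, 922 and 875 in ADREX libraries. The groups lay apart in brainstem, whereas in hypothalamus the highest ADREX library, 67, was level with the lowest sham library, 1, to within rounding. Glul stood at 16224, 20088, 20190.1 and 16439 and 16128, 12953, 15382 and 10463 in brainstem, and at 12803, 12316, 14078 and 13094 and 8653, 8980.0, 10736 and 9524 in hypothalamus, without overlap in either. Slc1a2, the main glutamate transporter of forebrain astrocytes, stood at 1122, 1109, 1170.0 and 987 in sham and 647, 863, 665 and 721 in ADREX brainstem, apart, but at 1067, 891, 815 and 917 and 1027, 429, 631 and 802 in hypothalamus, overlapping. Gfap stood at 5863, 5946, 6679.6 and 6489 in sham and 7747, 6705, 8159.8 and 6791 in ADREX brainstem, all ADREX libraries higher, a difference of 0.23 ± 0.11 that was no call. Groups without overlap were found for 7 listed genes in brainstem, 6 of them lower in ADREX, where 1.64% of all genes lay apart and lower. In hypothalamus they were found for 4 listed genes, Etnppl (only by that rounding), Gjb6, Glul and Ndrg2, all lower, where 2.38% of all genes lay apart and lower.

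**Figure D2:**
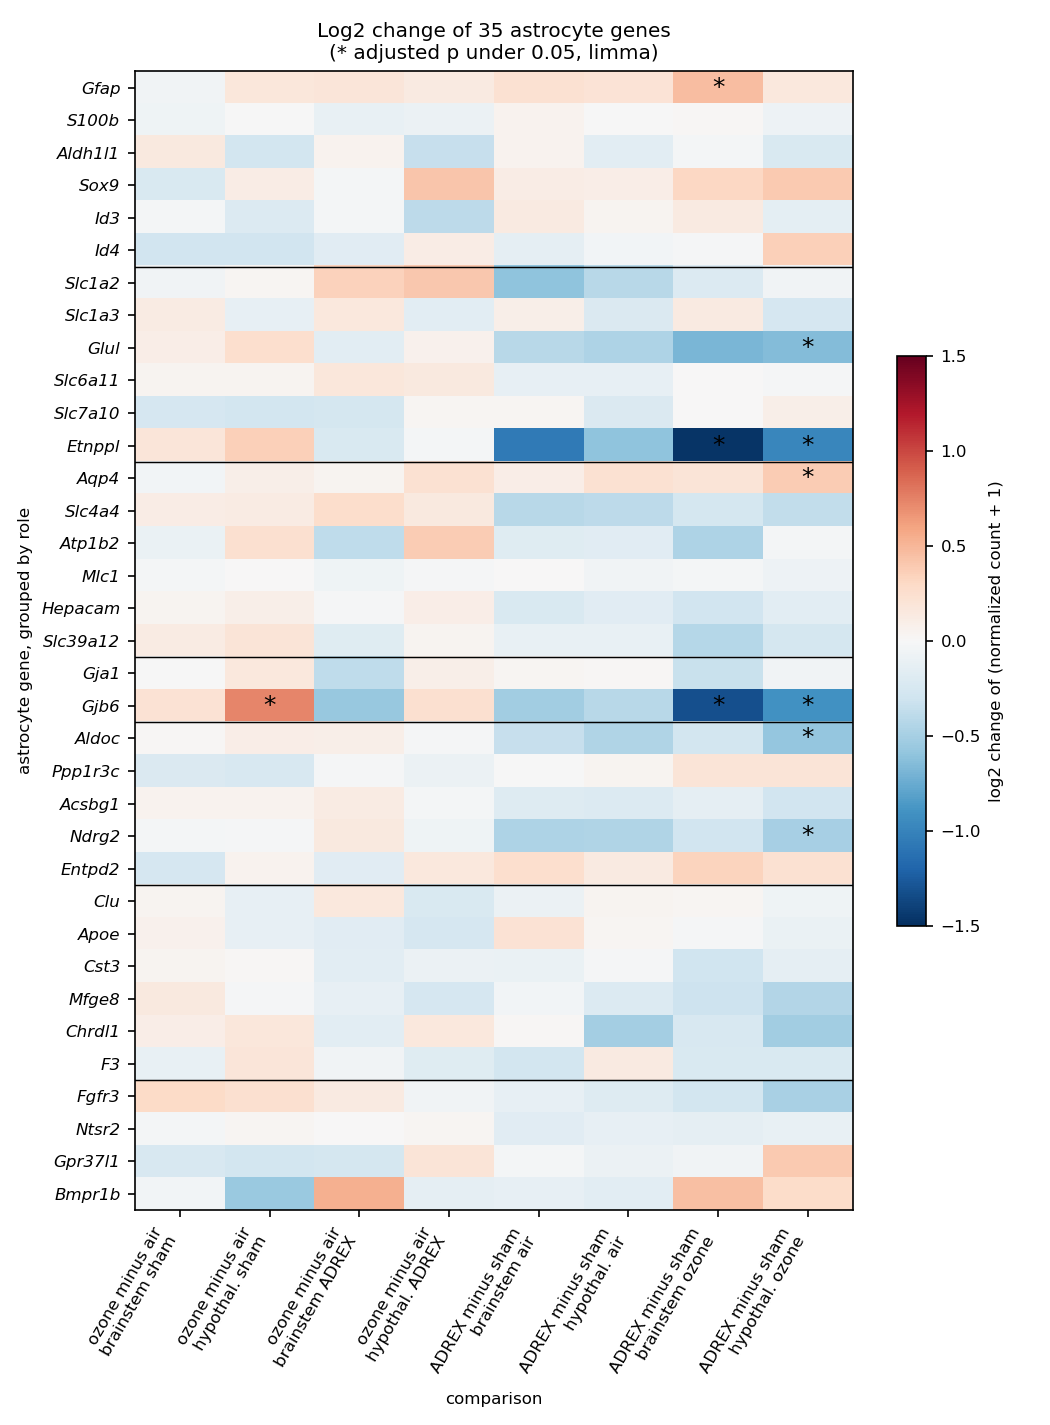
Colour map of log2 changes for the 35 genes (rows, in blocks by role) in the 8 comparisons within a tissue (columns), with a star where the limma adjusted p is under 0.05. Stars stand in the columns for ADREX against sham after ozone, at Etnppl and Gjb6 in both tissues, at Gfap in brainstem and at Glul, Aldoc, Ndrg2 and Aqp4 in hypothalamus, and once in an ozone column, at Gjb6 in sham hypothalamus.

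Averaged over air and ozone, a contrast added after the values had been seen, ADREX against sham gave 4 listed genes in brainstem, where 1.58% of all genes were called (0.618% higher and 0.965% lower), and 7 in hypothalamus, where 1.93% were (0.911% higher and 1.02% lower). In brainstem Etnppl (-1.27 ± 0.14), Gjb6 (-0.92 ± 0.16) and Glul (-0.55 ± 0.12) fell and Gfap (0.35 ± 0.08) rose. In hypothalamus Etnppl (-0.79 ± 0.13), Gjb6 (-0.67 ± 0.11), Glul (-0.56 ± 0.07), Aldoc (-0.52 ± 0.08), Ndrg2 (-0.48 ± 0.08) and Slc4a4 (-0.38 ± 0.08) fell and Aqp4 (0.31 ± 0.07) rose. Limma adjusted p lay between 8.35e-05 and 0.0379 in brainstem and between 0.000394 and 0.0228 in hypothalamus. The brainstem calls of Gfap and Glul were lost in 14 and 9 of 26 alternative fits, and that of Aqp4 in hypothalamus in 3 of 26. Slc4a4 stood at 1604, 1619, 1462 and 1466 normalized counts in air and 1521, 1709, 1696 and 1805 in ozone in sham hypothalamus, against 1467, 909.8, 1169 and 1215 and 1246, 1389, 1379 and 1191 in ADREX hypothalamus, where sham air and ADREX air overlapped through ADREX air 65.

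The next comparison asked what ozone did to these genes. In sham rats, 1 listed gene was called in the hypothalamus, where 1.59% of all genes were called (0.946% higher and 0.642% lower), and 0 in the brainstem, where 0.979% were (0.583% higher and 0.396% lower). The gene was Gjb6, which stood at 651, 768, 667 and 636 normalized counts in sham air and at 1108, 1386, 1009 and 1031 in sham ozone hypothalamus, without overlap. It rose by 0.73 ± 0.16 (limma adjusted p = 0.0239). The call was lost without sham air 1, 3 or 4, without sham ozone 17 or 18, and when the 4 liver-rich libraries were left out, with adjusted p of up to 0.0851. The sham ozone libraries of this comparison are also those of the comparison with ADREX ozone. In sham brainstem Gjb6 stood at 984, 1053, 1446 and 1184 in air and 1326, 1415, 1293 and 1339.9 in ozone, overlapping, a difference of 0.22 ± 0.22.

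In sham brainstem the 5 listed genes with the smallest p were not calls: Fgfr3 (0.29), Ppp1r3c (-0.22), Entpd2 (-0.25), Slc7a10 (-0.25) and Id4 (-0.29). Limma's smallest adjusted p among them was 0.314, 1 listed gene had an unadjusted p under 0.05, and edgeR and DESeq2 called 0 listed genes. Slc7a10 lay lower in ozone than in air in sham libraries of both tissues without overlap, at 427, 450.0, 449 and 379 and 371, 372, 332 and 355 in brainstem and at 303, 299.96, 312 and 337 and 261, 267, 255 and 249 in hypothalamus, with limma adjusted p of 0.825 and 0.214. Gene groups lay apart and lower for 3.69% of all genes in brainstem and 4.83% in hypothalamus. Gfap differed by -0.05 ± 0.11 in brainstem and 0.17 ± 0.18 in hypothalamus of sham rats, and Aqp4 by -0.04 ± 0.16 and 0.08 ± 0.09, so that no rise of either was detectable with 4 libraries a group.

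In ADREX rats, ozone against air gave 0 calls among the listed genes in limma, as among all genes (0% in both tissues). At an unadjusted p under 0.05 there were 2 listed genes in brainstem and 3 in hypothalamus, and edgeR and DESeq2 called 0 listed genes. The smallest p in hypothalamus belonged to Aldh1l1 (-0.34), Aqp4 (0.23), Apoe (-0.25), Slc6a11 (0.15) and Slc1a2 (0.40), none of them past the threshold. In brainstem it belonged to Gjb6 (-0.57), Bmpr1b (0.53), Slc1a2 (0.34), Slc4a4 (0.26) and Gja1 (-0.38), none of them past it either. Without library 81, Gjb6 stood there at -0.30 ± 0.16 and Gja1 at -0.11 ± 0.12. Whether ozone acted differently in sham and ADREX rats was tested as an interaction, and 0 listed genes were called in limma, edgeR or DESeq2, where limma called 0.201% of genes in brainstem (0.153% higher and 0.0486% lower) and 0.138% in hypothalamus (0.117% higher and 0.0207% lower). The interaction (ozone effect in sham minus that in ADREX) was 0.79 ± 0.32 for Gjb6 in brainstem (limma adjusted p = 0.798), or 0.52 ± 0.22 without library 81 (limma adjusted p = 0.587), and 0.49 ± 0.22 in hypothalamus. At an unadjusted p under 0.05 there were 1 and 3 listed genes. The difference of the ozone effect between tissues in sham rats gave 0 calls among all genes in limma (0%), with 0 listed genes at an unadjusted p under 0.05, while edgeR called 0 genes in all and DESeq2 called 2, neither of them listed.

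Between 12 and 15 of the 35 genes were called for hypothalamus against brainstem in each of the 4 conditions, where 31.0% of all genes were called in sham air, 27.4% in sham ozone, 26.6% in ADREX air and 33.0% in ADREX ozone. In sham air 5 listed genes were higher and 10 lower in hypothalamus, in sham ozone 4 and 8, in ADREX air 3 and 9, and in ADREX ozone 3 and 12. Of all 14533 genes, 2319 were higher and 2190 (15.1%) lower in sham air, 14.3% and 13.0% in sham ozone, 13.9% and 12.7% in ADREX air, and 17.5% and 15.4% in ADREX ozone. In ADREX ozone 15 listed genes were called also without brainstem library 81, and 12 without hypothalamus library 84. In all 4 conditions, 7 genes were lower in hypothalamus, namely Gfap, Aqp4, S100b, Aldoc, Hepacam, Slc7a10 and Ppp1r3c, and 2 were higher, namely Etnppl and Slc6a11. Over all genes, 7.33% were called lower in all 4 conditions and 8.96% higher.

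Gfap had the largest difference. Its normalized counts in sham air were 5863, 5946, 6679.6 and 6489 in brainstem and 1705, 2009, 2340.5 and 2216 in hypothalamus, a difference of -1.60 ± 0.16 (limma adjusted p = 2.65e-09), and it lay between -1.68 and -1.38 over the 4 conditions. Every brainstem library lay above every hypothalamus library. S100b stood at 13579, 13348, 13132 and 12577 and 7434, 7482, 7675 and 7679 normalized counts in sham air, with differences between -0.85 and -0.74. Aqp4 stood at 12442, 15047, 15030.1 and 14747 and 6517, 7618, 7175 and 7417, with differences between -0.99 and -0.67, and Aldoc at 7486, 6362, 6824 and 6127 and 4297, 3490.3, 4434 and 4094, with differences between -0.93 and -0.63.

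Hepacam stood at 431 ± 26.1 normalized counts in sham air brainstem and at 277 ± 24.05 in sham air hypothalamus, and Slc7a10 at 426 ± 33.5 and 313 ± 16.8. Ppp1r3c, which targets a phosphatase to glycogen, stood at 556 ± 62.9 and 442 ± 37.8, with a mean difference of -0.33 over the 4 conditions. The highest adjusted p of these 3 genes in any condition was that of Ppp1r3c in ADREX air (0.0352, limma).

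**Figure D3:**
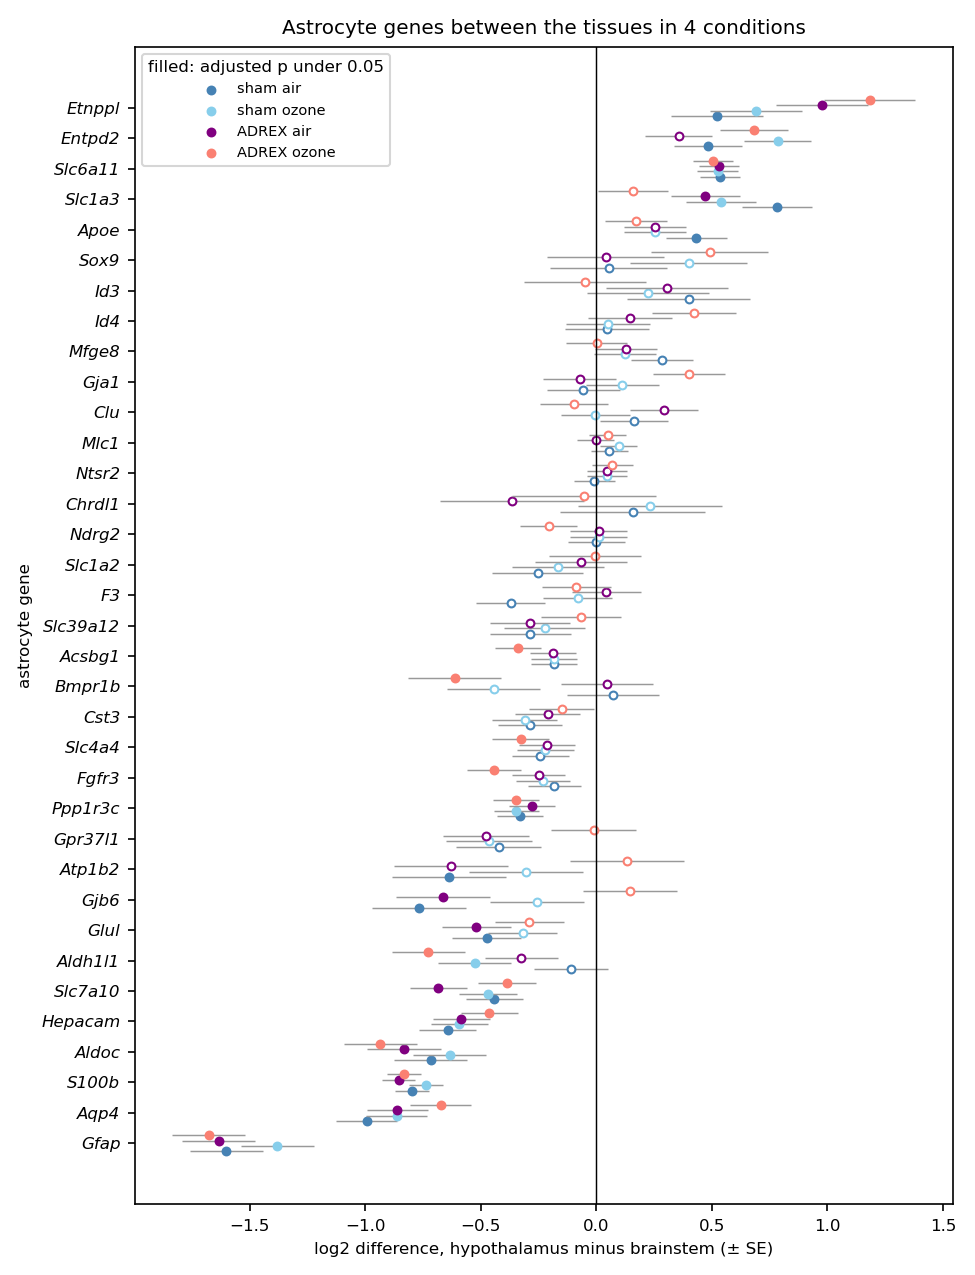
Log2 difference between hypothalamus and brainstem (x axis, ± SE) of each astrocyte gene (y axis, in order of the mean over conditions) in sham air, sham ozone, ADREX air and ADREX ozone, with filled points where the limma adjusted p is under 0.05. Gfap lies farthest to the left, between -1.68 and -1.38, and Etnppl, between 0.52 and 1.18, has the highest mean, although Slc1a3 in sham air and Entpd2 in sham ozone, both at 0.78, lie to the right of it.

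Slc6a11, which takes up GABA, was higher in hypothalamus by nearly the same amount in every condition. Its normalized counts in sham air were 1867, 1628, 1701 and 1594 in brainstem and 2272, 2500.3, 2535 and 2522 in hypothalamus, and its differences lay between 0.51 and 0.53, with limma adjusted p of at most 4.05e-05. Etnppl was higher by 0.52 ± 0.20 in sham air, 0.69 ± 0.20 in sham ozone, 0.98 ± 0.20 in ADREX air and 1.18 ± 0.20 in ADREX ozone, and whether the sizes differ between conditions was tested only for ozone in sham rats (interaction 0.17 ± 0.28, limma adjusted p = 0.983). The sham air call of Etnppl (limma adjusted p = 0.0459) was lost in 20 of 44 alternative fits. Slc1a3 was higher in 3 conditions, by 0.78 in sham air, 0.54 in sham ozone and 0.47 in ADREX air, but 0.16 in ADREX ozone was no call. Entpd2, an ectoenzyme that breaks down ATP, was higher in sham air (0.48), sham ozone (0.78) and ADREX ozone (0.68).

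For other genes no difference between the tissues was called in any condition. They were Slc1a2, Gja1, Ndrg2, Mlc1, Ntsr2, Sox9, Id3, Id4, Clu, Cst3, Mfge8, Slc39a12, Chrdl1, F3 and Gpr37l1. For Gja1 the difference lay between -0.07 and 0.40, and for Slc1a2 between -0.25 and -0.01. Mlc1, at 1779 ± 141 normalized counts in brainstem and 1848 ± 139 in hypothalamus in sham air, and the neurotensin receptor Ntsr2, at 489 ± 43.3 and 487 ± 57.5, gave 95% intervals of -0.11 to 0.22 and -0.19 to 0.17 there. Gjb6 was lower in hypothalamus in sham air (-0.77) and ADREX air (-0.66), and Aldh1l1 in sham ozone (-0.53) and ADREX ozone (-0.73). Gjb6 in the ozone conditions and Aldh1l1 in air were not called. Glul was lower in hypothalamus in sham air (-0.47) and ADREX air (-0.52). It was not called in the ozone conditions, but its differences were negative throughout, between -0.52 and -0.29. In ADREX ozone Glul stood at -0.29 and Gjb6 at 0.15. Brainstem library 81 was the lowest of its group there for Glul (8008, the others 11946 to 15265) and Gjb6 (303, the others 533 to 762). In 1 condition each, Atp1b2 was lower in sham air (-0.64) and Apoe, a lipid carrier, higher there (0.43), while Slc4a4 (-0.33), Acsbg1 (-0.34), Fgfr3 (-0.44) and Bmpr1b (-0.61) were lower in ADREX ozone. Brainstem ADREX ozone 81 held the highest value of its group for Acsbg1 (1523, the others 1109 to 1214) and Fgfr3 (1083, the others 852 to 964). The same held for Bmpr1b (115, the others 64.0 to 85.0) and Aldh1l1 (315, the others 195 to 207), but not for Slc4a4.

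Other cell types also differed between the tissues. In sham air all 12 oligodendrocyte markers were lower in hypothalamus, with a median of -1.23, and 6 of 8 ependymal markers were higher, with a median of 1.81. The summed oligodendrocyte markers ranged from 382861 to 443335 normalized counts in brainstem and from 129718 to 145830.0 in hypothalamus in sham air. The summed neuron markers ranged from 58818 to 61273 and from 51410.5 to 52704. That sum joins genes of opposite direction. Over all libraries Nefl averaged 16646 in brainstem and 5069 in hypothalamus, but Syt1 5482 and 16364. Slc17a6, Gad1 and Gad2 also averaged higher in hypothalamus, and the remaining neuron markers in brainstem. The 35 astrocyte genes together made up 1.25 to 1.502% of normalized counts in brainstem libraries and 0.987 to 1.24% in hypothalamus libraries. S100b is also made by oligodendrocytes, and Aldoc by Purkinje cells of the cerebellum, of which the marker Pcp2 averaged 6.99 normalized counts in brainstem and 0.0635 in hypothalamus. The part of these cells in the tissue differences was not tested.

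Scatter between libraries of a group differed widely from gene to gene. The within-group SD on the log2 scale was smallest for S100b in brainstem (0.076) and for Slc6a11 in hypothalamus (0.095), and largest for Id3 in brainstem (0.41) and Chrdl1 in hypothalamus (0.53). The median over the 35 genes was 0.219 in brainstem and 0.193 in hypothalamus, beside 0.253 and 0.221 over all genes. Atp1b2, the beta subunit of the astrocyte sodium pump, showed single high libraries: 27798, 15968, 15790.1 and 12638 normalized counts in ADREX air brainstem and 12007, 10492, 14461 and 24096 in ADREX ozone hypothalamus. Sox9, a transcription factor of astrocytes, did likewise, at 178, 412, 164 and 261 in sham ozone and 264, 288, 243 and 515 in ADREX ozone hypothalamus. By the median over the 35 genes brainstem ADREX ozone 81 deviated most, with Gpr37l1, an orphan receptor, at -1.27 and Aldoc at 1.08 log2 units from the mean of the other 3 libraries. The largest deviation of a single gene was that of Id3 in brainstem sham air 3, at -1.37.

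**Figure D4:**
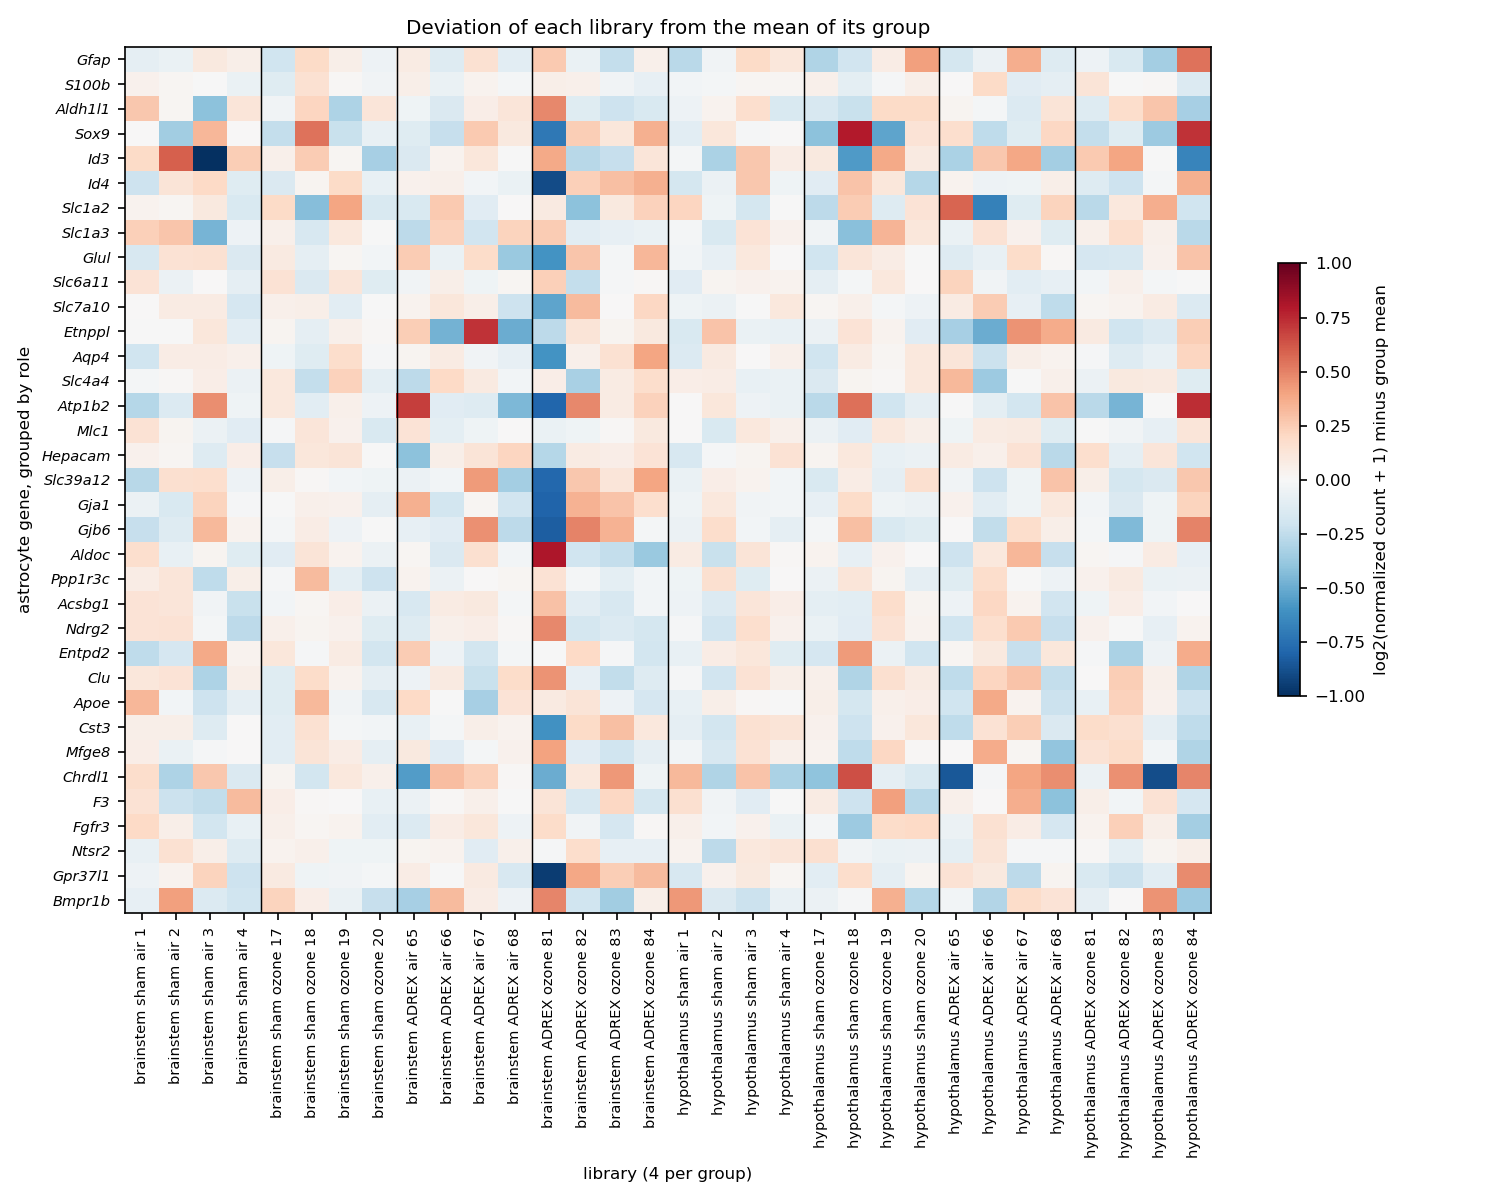
Colour map of log2(normalized count + 1) minus the mean of the library's group, for the 35 astrocyte genes (rows, in blocks by role) in 32 libraries (columns), with values beyond 1 drawn at the end of the scale. Brainstem ADREX ozone 81 stands out, with values from -0.95 (Gpr37l1) to 0.81 (Aldoc).

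Further genes of astrocytes were followed in lists chosen with earlier results of these data known. Of 28 other astrocyte genes tested, ADREX against sham after ozone gave 2 lower in brainstem, where 1.25% of all genes were lower, and 4 lower and 1 higher in hypothalamus, where 1.20% were lower and 1.04% higher. Agt, the angiotensinogen that astrocytes secrete, fell in brainstem, by a log2 difference of -0.52 ± 0.10, and in hypothalamus, by one of -0.44 ± 0.07 (limma adjusted p = 0.00964 and 0.00209). Eva1a, a membrane protein tied to autophagy, fell in both tissues (-1.06 ± 0.20 and -1.01 ± 0.21), and rose with ozone in sham rats by 0.90 ± 0.20 and 0.94 ± 0.21, comparisons that share the sham ozone libraries. In hypothalamus Cbs, an enzyme of the transsulfuration pathway, fell (-0.69 ± 0.10), as did Itih3 (-0.52 ± 0.10), while the progenitor factor Sox2 rose by 0.50 ± 0.11. Sox2 also fell with ozone in sham hypothalamus (-0.52 ± 0.11).

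Genes on 3 lists of reactive astrocytes were followed beside the shares of all genes called, 0.979% in brainstem and 1.59% in hypothalamus for ozone in sham rats, and 2.44% and 2.24% for ADREX against sham after ozone. Of 10 pan-reactive genes tested, ozone in sham rats gave 0 in brainstem and 1 in hypothalamus, the oncostatin M receptor Osmr (1.38 ± 0.23, limma adjusted p = 0.00388), and ADREX against sham after ozone gave 0 in both tissues. Of 10 genes on the list known as A1, 2 were called in each of the ozone comparisons in sham rats: Fkbp5, also a glucocorticoid-responsive gene, was higher (2.31 ± 0.13 and 2.23 ± 0.14) and the interferon-induced GTPase Gbp2 lower (-1.10 ± 0.20 and -1.07 ± 0.17). After ozone both were the reverse in ADREX against sham, Fkbp5 at -2.66 ± 0.13 and -2.39 ± 0.14 and Gbp2 at 1.31 ± 0.20 and 1.03 ± 0.17, again with the sham ozone libraries shared. On the list known as A2, Tm4sf1, a surface protein also found in endothelium, was lower with ozone in sham rats (-0.90 ± 0.15 and -0.88 ± 0.17). Among 14 genes of glycogen and lactate metabolism, 1 was called in ADREX against sham after ozone in each tissue, Pygm, a glycogen phosphorylase that astrocytes contain, which fell, with log2 differences of -0.78 ± 0.14 in brainstem and -0.97 ± 0.12 in hypothalamus (limma adjusted p = 0.00549 and 0.000138).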

How the data were processed

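RNA from brainstem and hypothalamus was made into mRNA libraries and sequenced on an Illumina NextSeq 500, per the labels' protocols. The authors deposited a signal, normalized read counts per gene, for 22587 genes in 32 libraries. The submitters' processing notes name Partek, DESeq2 and build rn6 without role or version, and no aligner or annotation was found in the labels or headers. Values were whole multiples of 1 step per library within 0.001 for 100% of values, which gave back whole reads (6.44 to 12.4 M per library).

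Values were analysed as log2(value + 1) with limma 3.58.1 in R 4.3.3 (mean of 10 or more over the fit's libraries, trended prior variance, Benjamini-Hochberg adjustment over all genes), with 16 libraries and 4 group means per tissue, or 32 libraries and 8 group means between tissues. Fold changes on this scale understate changes of low genes. Intervals are 95% limma intervals. On the recovered reads edgeR 4.0.16 and DESeq2 1.42.0 were alternatives, beside other pseudocounts, filters, normalizations, weights, sample sets and libraries left out. Genes were named with values if called within a tissue, if among the 10 largest called in all 4 tissue contrasts, if Gfap, Aqp4, Aldh1l1, Slc1a2, Slc1a3, Gja1 or S100b, or as the 5 smallest p where none was called; from other lists up to 4 called genes were named. The gene members and lists were chosen with earlier results of these data known. Genes sharing reads with a near-identical copy or an antisense partner are uncertain, since no label states how reads were counted. The fit was tested on simulated reads for ozone against air in sham brainstem, with changes planted in genes well above the filter on low values. It called 21 of 100 changes of 0.5 log2 units and 83 of 100 changes of 1 log2 unit, with 8 false calls.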

Additional observations from a re-analysis of the deposited data

Results flagged for a closer look

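Each of 17 named astrocyte genes was screened in its 8 groups of 4 libraries for a library far from the other 3, by the gap to the nearest library as a share of the group's range. Of 136 groups 9 were flagged, and chance flags about 1 in 20. Library brainstem ADREX ozone 81 gave 4 of them: Aldoc at 9792 normalized counts (nearest other library 4859), Ndrg2 at 7980.3, Aldh1l1 at 315 and Slc1a3 at 1858. The other 5 were Aqp4 at 12442.5 in brainstem sham air 1, Ndrg2 at 6407 in brainstem sham ozone 20, Slc6a11 at 2272 in hypothalamus sham air 1, and Gja1 at 5224 in hypothalamus sham air 2 and at 6159.7 in hypothalamus sham ozone 18.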

How the results depend on the processing

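No called difference that was recomputed reversed its direction under an alternative. Small uncalled ones did: without brainstem ADREX ozone 81, for ADREX against sham in brainstem ozone, S100b went from 0.01 to -0.01 ± 0.07 and Slc6a11 from 0.01 to -0.07 ± 0.09. With limma sample weights the number of listed genes called was 9 for ADREX against sham in brainstem ozone and 9 for its mean over exposures, 11 and 12 for the same in hypothalamus, 1 in brainstem air, 6 for ozone in sham hypothalamus and 20 between the tissues in sham ozone. DESeq2 called 1 in ADREX against sham in brainstem air, 1 in hypothalamus air and 7 for the brainstem mean. With no low-value filter the brainstem mean gave 2, with the compared groups alone the tissues differed in 8 genes in ADREX ozone, and without the 4 liver-rich libraries ozone in sham hypothalamus gave 0. The cause was not tested. Over all genes DESeq2 called 237 against 141 for ozone in sham brainstem, 412 against 230 in sham hypothalamus, 16 against 0 and 14 against 2 for ADREX in air, 372 against 228 and 528 against 280 for the means, and 74 against 29 and 53 against 20 for the interactions. Leaving out each library in turn gave 2 to 6 in brainstem ozone and 4 to 7 in hypothalamus ozone for ADREX against sham, 2 to 7 and 6 to 10 for the means, 0 to 1 in brainstem air and 0 to 1 in hypothalamus air, 0 to 1 for ozone in sham hypothalamus, and between tissues 12 to 17 in sham air, 10 to 15 in sham ozone, 9 to 14 in ADREX air and 12 to 16 in ADREX ozone; each other comparison gave 0 throughout. Libraries of the tissues share numbers, but nothing states that a number marks an animal: deviations of same-numbered libraries correlated between -0.53 and 0.61, and 4 of 16 libraries correlated best with their own number. With the number as a replicate block the tissues differed in 13 genes in sham air (Etnppl and Atp1b2 lost), 12 in sham ozone, 12 in ADREX air and 15 in ADREX ozone. With 4 libraries a group, small differences are not detectable for genes of large scatter such as Chrdl1, Id3 and Sox9.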
